A study of Mus musculus with 6 samples.

Results

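Histones and the proteins that write, read and move them were examined in the neonatal mouse ovary on 2-colour spotted cDNA arrays. The genes were those whose clone annotation contained a word for histones, SWI/SNF subunits, DNA methyltransferases, chromobox, bromodomain, chromodomain, polycomb or high mobility group proteins, or chromatin. The oocyte linker histone (annotated as H1 histone family, member O) and names with "replication" were left out. This gave 37 genes, measured by 49 of 8272 probes, out of 4704 annotation names in the series. The brightest probe stood for each gene, 8 genes had several probes, and 34 genes could be given a current symbol. The other 3 are named by their annotation.

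The ovaries came from C57Bl/6J pups, with no other genotype or treatment given, on the day of birth (day 0), at day 2 and at day 4, a period in which follicles form and begin to grow. Each of 6 arrays compared RNA of 1 later-day sample, labelled with Cy5, with 1 day 0 sample, labelled with Cy3, so that every value is a log2 ratio of the later day over day 0. There were 3 arrays of day 2 and 3 of day 4, described as biological replicates with 4 repeat measurements each, and the labels do not say whether ovaries of several pups were pooled. The third arrays of the 2 ages were hybridised against 1 common day 0 RNA, while each remaining array had its own. With 1 dye orientation throughout, as the labels give it, a dye bias of a gene and a true difference from day 0 cannot be told apart.

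Nucleosomes are built from core histones. Replication-coupled histones are made in S phase from clustered genes, mostly as transcripts without a poly(A) tail, whereas variants such as H2A.Z and H3.3 are deposited throughout the cell cycle. High mobility group proteins bind DNA or nucleosomes and change their folding, remodelling enzymes of the SWI/SNF, ISWI and CHD families move nucleosomes, and acetyltransferases, methyltransferases and polycomb complexes place marks that bromodomain and chromobox proteins read. In the neonatal ovary the oocytes are arrested in meiotic prophase and the surrounding somatic cells divide. DNA methylation marks, imprints among them, are laid down in oocytes during their later growth.

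The 3 day 2 arrays gave values for all 37 genes, and 17 genes had values on all 3 arrays at day 4. The day 4 arrays lacked values for some probes: 29 of the 37 genes had one on array 1, 37 on array 2 and 23 on array 3. The genes without one on array 1 were among the brightest: Cbx5, Hmgb1, H3f3b, Hmgn2, H2az1, Hmgb3, Chd4 and Smarca4. Their mean log2 intensities ran from 11.6 to 14.8, and the brightest gene with a value there was Smarce1 (11.9). For Hmgb1, Cbx5 and Chd4 a dimmer probe had values on all 3 day 4 arrays. Over all 8272 probes the first and second day 2 arrays ran against each other (r = -0.68), and over the 37 genes they did so as well (r = -0.63, n = 37 genes, which share the labels' dye orientation). The direction at day 2 is therefore not settled, and the fitted day 2 means and day 4 over day 2 differences that are printed below are given as labelled and with array 1 or array 2 turned in sign. Values of single day 2 arrays, and the signs read from them, are as labelled only. The third day 4 array stood apart from its group: over all probes it correlated at 0.51 and 0.44 with day 4 arrays 1 and 2, which correlated at 0.75 with each other, and at 0.77 with the third day 2 array, with which it shares the day 0 RNA. Over the histone and chromatin genes it correlated at 0.15 (n = 17 genes) and -0.02 (n = 23 genes) with day 4 arrays 1 and 2, which correlated at 0.69 (n = 29 genes). The ovary's own markers were present: 7 of 7 oocyte markers had positive day 4 log2 ratios (median 2.39, range 0.90 to 3.38), as did 2 of 2 granulosa markers, and 5 of 5 erythroid markers had negative ones (-1.46 to -0.48). In whole ovary RNA, fewer cells of a type and less RNA per cell cannot be told apart, and the part of these shifts in the values below was not tested.

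At day 4 no histone or chromatin gene passed the threshold (limma, Benjamini-Hochberg adjusted p under 0.05 over all 8135 probes tested), with 35 of the 37 genes tested. Of all probes 0.479% passed, and of the brightest probes per annotation name 0.324%. At an unadjusted p under 0.05 there were 6 of 35, with 3 above day 0 (Kat8, Dnmt3a and Pcgf1) and 3 below (a putative DNA/chromatin binding motif, Hmga1 and Hira). The same holds for 9.29% of all probes and 10.3% of the brightest probes per name, of which 4.36% lay above and 5.93% below, and the count of 6 is given beside that background without a test of the group. Without day 4 array 1 this count was 3 of 23 (6.18% of the brightest probes per name), without day 4 array 2 it was 2 of 17 (8.07%), and without day 4 array 3 it was 5 of 29 (8.53%). Dnmt3a was not tested without array 1 or array 2, since it then had 1 day 4 value. The median log2 ratio was -0.09, with 14 positive and 21 negative, beside a median of -0.06 and 40.9% positive over the 4635 brightest probes per name that were tested. Of the 17 genes with all 3 day 4 values, 2 lay above 0 and 4 below 0 on every array, which is 35.3%, beside 43.0% of all names with 3 values.

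**Figure D1:**
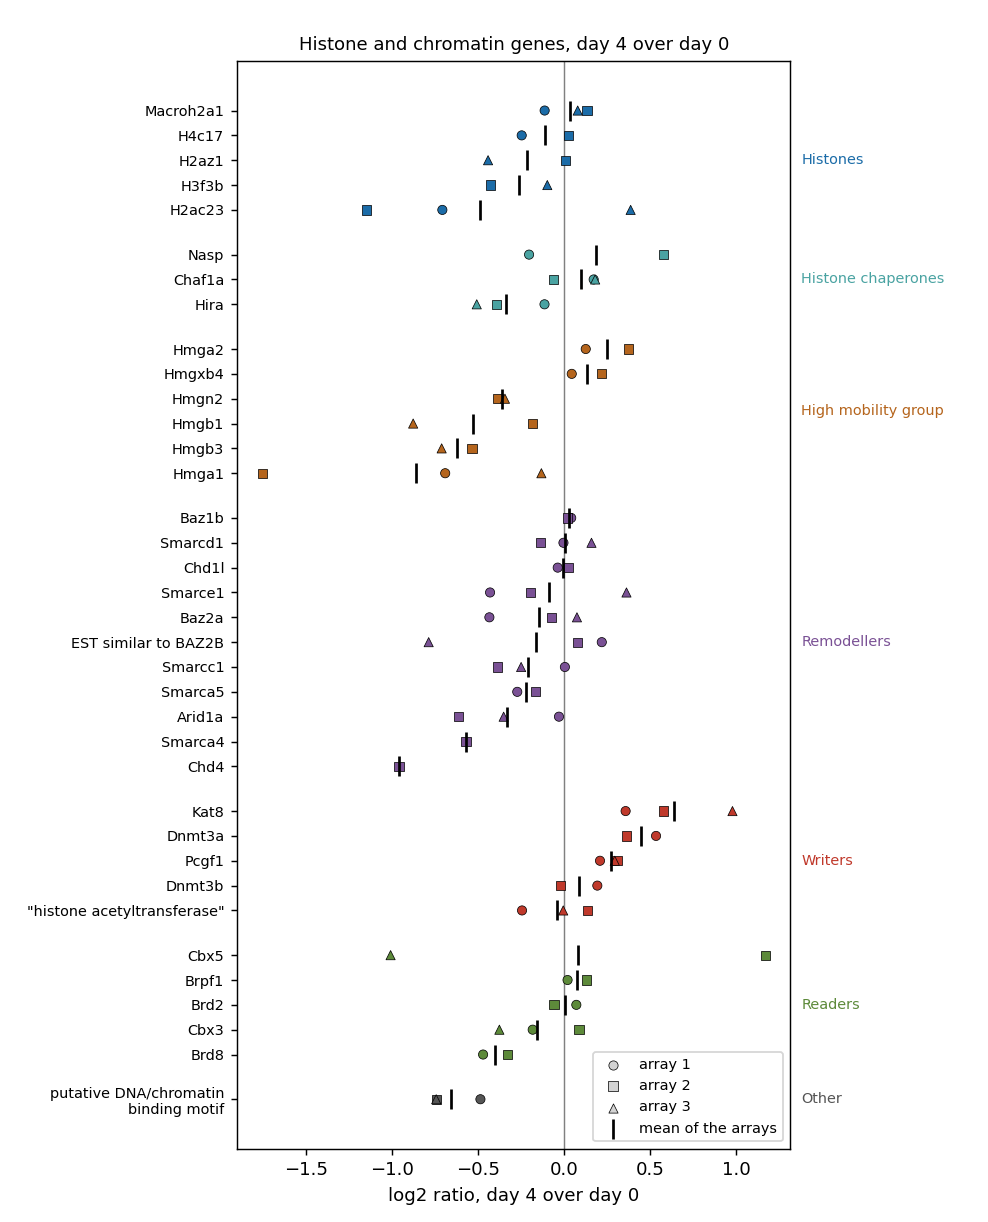
Log2 ratios of day 4 over day 0 for 36 of the 37 genes, grouped by role, with 1 marker per array (circle, square and triangle for arrays 1 to 3, fewer where a value is missing) and a vertical tick at the mean of the arrays. Kat8 and Pcgf1 lay above 0 on all 3 arrays, the putative binding motif lay between -0.49 and -0.74, and the high mobility group genes ranged from -1.75 to 0.37.

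None of the 5 histones passed the test, and 4 had negative and 1 a positive fitted ratio, with a median of -0.22. H2ac23 (annotated as histone 1, H2ao), a replication-coupled H2A gene, measured -0.71, -1.15 and 0.39 on the day 4 arrays, with a fitted log2 ratio of -0.49 ± 0.29 (SE, n = 3, adjusted p = 0.692). The third array was opposite to the other two. H4c17 (annotated as histone 1, H4m), a replication-coupled H4 gene, measured -0.25 and 0.02 (-0.11 ± 0.17, n = 2, adjusted p = 0.889). Genes of 1 histone type within these clusters have near-identical coding sequences, and a spotted cDNA may hybridise to several of them, so these values may hold more than the named gene. H2az1, the H2A.Z variant found at promoters, measured 0.01 and -0.44 at day 4 (-0.22 ± 0.42, n = 2, adjusted p = 0.917). H3f3b, 1 of the 2 genes for histone H3.3, measured -0.43 and -0.10 (-0.26 ± 0.24, n = 2, adjusted p = 0.802), and its 2 other probes measured -0.33 and -0.03, and -0.33 and -0.25. All 6 day 4 values of H3f3b lay below 0, but none of its 3 probes passed the test. The 6 values come from the same 2 arrays and are not separate measurements. Macroh2a1 (annotated as H2A histone family, member Y), a large H2A variant linked to silent chromatin, measured -0.11, 0.13 and 0.08 (0.03 ± 0.11, n = 3). Its probe was the dimmest of the 37 and was marked by the authors on 3 of 6 arrays. The 5 day 4 ratios ranged from -0.49 to 0.03.

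At day 2 the 4 probes for H2az1 made the disagreement of the arrays plain. On array 1 they measured 0.67, 1.40, 0.70 and 0.35, on array 2 they measured -0.88, -1.15, -0.85 and -0.57, and on array 3 they measured -0.84, -0.79, -0.56 and -0.68. The probes kept to 1 sign within each array and changed sign between arrays 1 and 2, so that the spread lay between arrays and not between clones. The brightest probe averaged -0.35 ± 0.35 (n = 3, adjusted p = 0.966) as labelled. It averaged -0.80 with array 1 turned (limma, adjusted p = 0.156) and 0.24 with array 2 turned (adjusted p = 0.796). H3f3b measured 0.26, -0.58 and -0.30 on its brightest probe, while its second probe measured -0.60, -0.24 and -0.23 and its dimmest -0.40, -0.27 and 0.33. Its clones thus differed in sign on arrays 1 and 3. H2ac23 measured -0.11, 0.12 and 0.32, H4c17 measured -0.16, 0.20 and 0.22, and Macroh2a1 measured 0.23, 0.20 and 0.01, none of which passed the test.

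**Figure D2:**
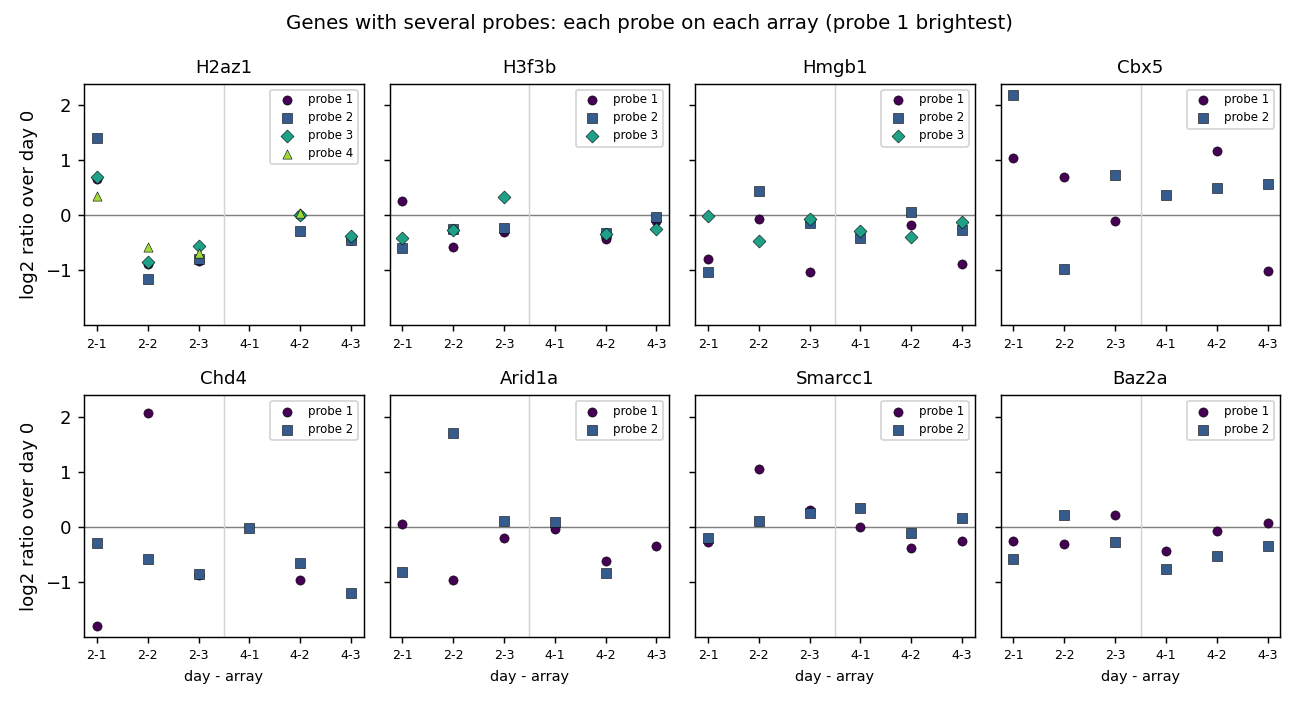
Log2 ratio over day 0 of each probe for the 8 genes with several probes, by day and array (2-1 is array 1 of day 2), with probe 1 the brightest; a probe with no value on an array has no marker. The 4 probes of H2az1 moved together from array to array, between 0.35 and 1.40 on array 1 of day 2 and between -1.15 and -0.57 on array 2, whereas the 2 probes of Arid1a and of Cbx5 took opposite signs on array 2 of day 2.

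The promoters of both kinds of histone gene are shown because the cluster genes and the variant genes are regulated differently through the cell cycle. The 250 bases before the RefSeq start (GRCm38.p6) are printed 5′ to 3′ in the sense of the gene. The capitals mark 3 short motifs of many promoters, searched on both strands. They are CCAAT with its reverse complement, written ATTGG, then TATAAA with its reverse complement, written TTTATA, and finally GGGCGG with its reverse complement, written CCGCCC.
H2ac23, chr13:21810117-21810366, plus strand: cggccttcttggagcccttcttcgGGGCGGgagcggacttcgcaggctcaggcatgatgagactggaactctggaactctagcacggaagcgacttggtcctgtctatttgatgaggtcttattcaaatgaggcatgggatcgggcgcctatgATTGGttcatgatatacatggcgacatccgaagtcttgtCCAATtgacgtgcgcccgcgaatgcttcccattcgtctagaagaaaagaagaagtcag
H4c17, chr13:21811496-21811745, plus strand: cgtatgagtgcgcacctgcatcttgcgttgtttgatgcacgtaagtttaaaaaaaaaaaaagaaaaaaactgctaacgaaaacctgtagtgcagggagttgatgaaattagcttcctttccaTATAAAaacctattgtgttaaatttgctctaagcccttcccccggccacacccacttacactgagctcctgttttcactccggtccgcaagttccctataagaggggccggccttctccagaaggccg
H2az1, chr3:137864237-137864486, plus strand: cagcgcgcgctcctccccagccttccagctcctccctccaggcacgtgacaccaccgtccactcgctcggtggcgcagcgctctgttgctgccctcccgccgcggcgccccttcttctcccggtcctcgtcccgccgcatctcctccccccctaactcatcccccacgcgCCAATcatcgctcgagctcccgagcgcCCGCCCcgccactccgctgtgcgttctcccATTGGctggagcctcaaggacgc
H3f3b, chr11:116024505-116024754, minus strand: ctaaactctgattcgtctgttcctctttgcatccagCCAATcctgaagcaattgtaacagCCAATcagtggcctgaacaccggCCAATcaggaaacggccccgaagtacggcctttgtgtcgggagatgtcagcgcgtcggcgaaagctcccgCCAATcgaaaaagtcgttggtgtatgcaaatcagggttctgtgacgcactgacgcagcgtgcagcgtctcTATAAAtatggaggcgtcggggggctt
No match overlapped another in these windows. H2ac23 had 2 CCAAT matches and 1 GGGCGG match, and H4c17 had 1 TATAAA match. H2az1 had 2 CCAAT matches and 1 GGGCGG match, and H3f3b had 4 CCAAT matches and 1 TATAAA match. Of all 32851 promoters of this length in the RefSeq set, 33.8% held CCAAT, 12.4% held TATAAA and 32.7% held GGGCGG. Promoters were found for 30 of the 37 genes, of which 10 held CCAAT, 2 held TATAAA and 22 held GGGCGG at the first listed start. The matches are a description of these letters only.

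Histone chaperones carry histones to and from DNA. Hira, which deposits H3.3 outside S phase, measured -0.11, -0.39 and -0.51 on the day 4 arrays, all below 0 (-0.34 ± 0.14, n = 3, adjusted p = 0.528). Chaf1a, the large subunit of the assembly factor that works at replication forks, measured 0.17, -0.06 and 0.18 (0.10 ± 0.10, n = 3, adjusted p = 0.822). Nasp, which binds free histones, measured -0.20 and 0.58 (0.19 ± 0.29, n = 2, adjusted p = 0.891). At day 2 Hira measured 0.11, -0.33 and -0.18, Chaf1a measured 0.04, 0.04 and 0.01, and Nasp measured 0.65, -0.20 and 0.16. Chaf1a had the smallest spread of the 3 at day 2, with a standard deviation (SD) of 0.01 over the arrays, on a dim probe. The 4 repeats within each of these arrays had larger SDs of 0.17, 0.21 and 0.08, so this closeness is not read as a trait of the gene. Slbp, which binds the stem-loop that ends replication-coupled histone transcripts and is no member of the keyword list, had a day 4 log2 ratio of 0.04 ± 0.24. Of 12 cell cycle genes tested at day 4, 0 had an unadjusted p under 0.05 by limma and 10 had negative ratios, with a median of -0.11. Of all brightest probes per name 10.3% passed that cut and 40.9% were positive.

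The high mobility group genes had the most negative median of the roles with over 1 gene at day 4, -0.45 over 6 genes, with 4 negative and 2 positive, and none passed the test. Hmga1, an AT-hook protein abundant in dividing and embryonic cells, measured -0.69, -1.75 and -0.13 (-0.86 ± 0.29, n = 3, adjusted p = 0.423, 1.81-fold below day 0). All arrays lay below 0, and array 2 decided the size: without it the log2 ratio was -0.41. Its relative Hmga2 measured 0.13 and 0.37 (0.25 ± 0.15, n = 2, adjusted p = 0.700), opposite in sign to Hmga1 on both arrays that measured it. Hmgb1, an abundant protein that bends DNA, measured -0.18 and -0.88 on its brightest probe (-0.53 ± 0.30, n = 2, adjusted p = 0.690). The 2 other Hmgb1 probes had values on all 3 day 4 arrays, -0.41, 0.06 and -0.26 for the brighter and -0.28, -0.39 and -0.11 for the dimmer. Their fitted ratios were smaller in size, -0.20 and -0.26. Of the values of all Hmgb1 probes 7 of 8 lay below 0, but they come from the same 3 arrays and are not separate measurements. Hmgb3, the box protein known from blood stem cells, measured -0.53 and -0.71 (-0.62 ± 0.41, n = 2, adjusted p = 0.730). Hmgn2, which binds nucleosomes, measured -0.38 and -0.34 (-0.36 ± 0.19, n = 2, adjusted p = 0.665). Hmgxb4 measured 0.04 and 0.22 (0.13 ± 0.13, n = 2, adjusted p = 0.820).

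Hmgn2 and Hmgb1 also lay below 0 on each of the 3 day 2 arrays. Hmgn2 measured -0.38, -0.43 and -0.98 at day 2 (-0.59 ± 0.16, n = 3, adjusted p = 0.966). Its mean was -0.34 with array 1 turned and -0.31 with array 2 turned. Arrays 1 and 2 were close in value, so turning either nearly cancelled them and array 3 set the sign. Hmgb1 measured -0.78, -0.06 and -1.02 on its brightest probe (-0.62 ± 0.24, n = 3, adjusted p = 0.966), with means of -0.10 and -0.58 when array 1 or array 2 was turned. Its second probe was positive on array 2, at 0.44. Hmgb3 measured -1.19, 0.51 and -0.71, so that its arrays disagreed. Hmga1 measured -0.34, -0.19 and -0.39 and Hmgxb4 measured -0.03, -0.17 and -0.20, both below 0 on all arrays, while Hmga2 measured -0.03, 0.24 and 0.09. Since array 3 of both ages shares its day 0 RNA, the values of those 2 arrays are not independent of each other.

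**Figure D3:**
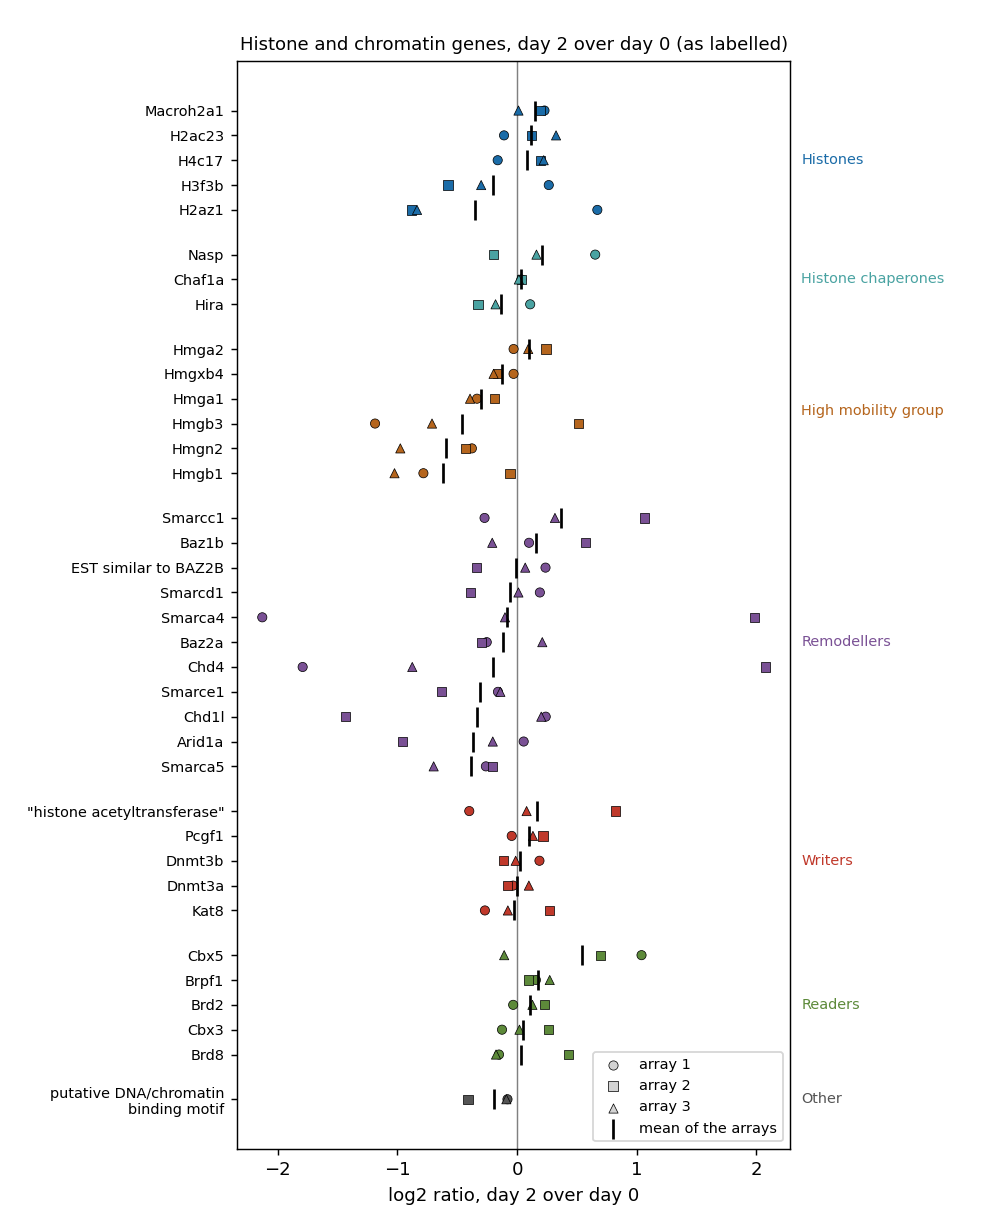
Log2 ratios of day 2 over day 0 for the same 36 genes in the direction of the labels, with 1 marker per array and a vertical tick at the mean. Arrays 1 and 2 lay on opposite sides of 0 for 22 of the 37 genes and farthest apart for Smarca4 (-2.13 and 1.98) and Chd4 (-1.79 and 2.07), while Hmgn2, Hmgb1 and Smarca5 lay below 0 on all 3 arrays.

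Of the writers, Kat8, the acetyltransferase of lysine 16 of histone H4 (annotated as MYST histone acetyltransferase 1), had the highest day 4 ratio of the 35 genes tested. It measured 0.36, 0.58 and 0.98, above 0 on all 3 arrays (0.64 ± 0.17, n = 3, adjusted p = 0.270, 1.56-fold above day 0), and did not pass the test. At day 2 it measured -0.27, 0.27 and -0.08 (-0.03 ± 0.17, or 0.15 and -0.21 with array 1 or array 2 turned), so that every day 4 value lay above every day 2 value, and day 4 over day 2 was 0.66 ± 0.24 (limma, adjusted p = 1.00). With day 2 array 1 or array 2 turned this difference was 0.48 or 0.84. Its promoter is printed with the same motifs in capitals, at the more upstream of 2 starts listed by RefSeq, because Kat8 had the highest ratio.
Kat8, chr7:127912267-127912516, plus strand: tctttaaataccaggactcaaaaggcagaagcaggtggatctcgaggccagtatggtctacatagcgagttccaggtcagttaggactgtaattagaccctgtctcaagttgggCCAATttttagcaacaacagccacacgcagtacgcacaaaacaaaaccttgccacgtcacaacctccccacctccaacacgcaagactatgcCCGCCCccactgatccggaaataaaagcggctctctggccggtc
This window held 1 CCAAT match and 1 GGGCGG match, and no TATAAA match.

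Dnmt3a, a DNA methyltransferase that sets new methylation and imprints in growing oocytes, measured 0.53 and 0.36 at day 4 (0.45 ± 0.13, n = 2, adjusted p = 0.393, 1.36-fold above day 0). At day 2 it measured -0.03, -0.08 and 0.10, all under both day 4 values, and day 4 over day 2 was 0.45 ± 0.17 (adjusted p = 1.00), or 0.43 and 0.40 with array 1 or array 2 turned. Dnmt3b, the other de novo enzyme, measured 0.19 and -0.02 at day 4 (0.09 ± 0.15, n = 2, adjusted p = 0.902) and 0.19, -0.11 and -0.01 at day 2. The maintenance enzyme Dnmt1 and the cofactor Dnmt3l were not analysed here. Pcgf1 (annotated as nervous system polycomb 1), a subunit of a variant polycomb complex, measured 0.21, 0.31 and 0.29 at day 4 (0.27 ± 0.10, n = 3, adjusted p = 0.497, 1.21-fold). Of the 2 genes above 0 on all 3 day 4 arrays, Pcgf1 varied less, with an SD of 0.05 over the arrays. The 4 repeats within each of these arrays had larger SDs of 0.17, 0.11 and 0.11. The SE of Pcgf1 pools the spread of the day 2 arrays (-0.05, 0.22 and 0.13). A clone annotated only as "histone acetyltransferase" measured -0.24 and 0.13 on day 4 arrays 1 and 2 and close to 0 on array 3, and -0.40, 0.82 and 0.08 at day 2.

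The remodelling genes gave 9 tested genes at day 4 by their brightest probes, of which 2 were positive and 7 negative, with a median of -0.14. At an unadjusted p under 0.05 there were 0. Of all brightest probes per name 10.3% passed that cut and 40.9% were positive. The second probes of Baz2a (unadjusted p = 0.0216, limma) and Chd4 (0.0388) passed it below day 0, and those of Arid1a and Smarcc1 did not. Smarca5, the ISWI motor, measured -0.27 and -0.17 at day 4 (-0.22 ± 0.17, n = 2, adjusted p = 0.774) and -0.26, -0.21 and -0.70 at day 2 (-0.39 ± 0.14, n = 3, adjusted p = 0.966). All 5 of its values lay below 0 as labelled. Its day 2 mean was -0.21 with array 1 turned and -0.25 with array 2 turned. In those fits day 2 arrays 1 and 2 nearly cancelled, so array 3 set the sign. Arid1a, the DNA-binding subunit of a SWI/SNF complex, measured -0.03, -0.61 and -0.35 at day 4 (-0.33 ± 0.22, n = 3, adjusted p = 0.722). At day 2 its brightest probe measured 0.05, -0.96 and -0.20 and its second probe -0.81, 1.7 and 0.10, opposite in sign on every array. The brightest probe's day 2 mean was -0.37 as labelled, -0.41 with array 1 turned and 0.27 with array 2 turned. Smarcc1, a SWI/SNF core subunit, measured 0.01, -0.39 and -0.25 at day 4 and -0.27, 1.06 and 0.32 at day 2, with day 4 over day 2 at -0.58 ± 0.35 (adjusted p = 1.00). That difference was -0.76 with array 1 turned and 0.13 with array 2 turned. The dimmer second probe of Smarcc1 measured 0.35, -0.11 and 0.17 at day 4 and -0.19, 0.12 and 0.25 at day 2. Its fitted day 4 ratio was 0.14 ± 0.14, beside -0.21 ± 0.25 for the brightest probe. As labelled, its day 4 over day 2 difference was positive, opposite in sign to that of the brightest probe.

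The 2 motor genes with the widest day 2 spread could not be tested. Smarca4, the SWI/SNF ATPase, measured -2.13, 1.98 and -0.10 at day 2 (SD 2.06) and had 1 day 4 value, -0.57. Chd4, the ATPase of the nucleosome remodelling and deacetylase complex, measured -1.79, 2.07 and -0.88 on its brightest probe (SD 2.02) and -0.96 on the only day 4 array with a value. Its second probe lacked that swing, with -0.29, -0.58 and -0.85 at day 2. At day 4 the second probe measured -0.01, -0.66 and -1.20, with a fitted ratio of -0.63 ± 0.24 (n = 3, adjusted p = 0.495). Of the 10 values of both Chd4 probes, 9 lay below 0, with those at day 2 as labelled only. The probes share arrays and RNA, so these are not 10 separate measurements. Baz2a, of a remodeller that silences ribosomal genes, measured -0.43, -0.07 and 0.08 at day 4 on its brightest probe and -0.76, -0.53 and -0.34 on its second (-0.54 ± 0.18, n = 3, adjusted p = 0.401). The other remodelling genes had day 4 ratios from -0.16 to 0.03: Baz1b, Chd1l, Smarcd1, Smarce1 and an EST similar to human BAZ2B.

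The readers spread around 0 at day 4, with a median of 0.00 over 6 genes and 3 positive. Brd8, a bromodomain protein of an acetyltransferase complex, measured -0.47 and -0.33 (-0.40 ± 0.20, n = 2, adjusted p = 0.640), after -0.15, 0.43 and -0.18 at day 2. Brd2, a transcriptional co-activator that binds acetylated histones, measured 0.07 and -0.06 at day 4, and -0.03, 0.23 and 0.13 at day 2. Brpf1, a scaffold of acetyltransferase complexes, measured 0.02 and 0.13 at day 4, and 0.16, 0.10 and 0.27 at day 2 (0.18 ± 0.11, n = 3, adjusted p = 0.966, or 0.07 and 0.11 with array 1 or array 2 turned), positive on all 5 arrays as labelled. The heterochromatin protein Cbx3 measured -0.18, 0.09 and -0.38 at day 4 and -0.13, 0.26 and 0.02 at day 2. The heterochromatin protein Cbx5 measured 1.17 and -1.01 at day 4 on its brightest probe, and its second probe measured 0.37, 0.50 and 0.58 (0.48 ± 0.54, n = 3, adjusted p = 0.829). The second probe was thus positive on all day 4 arrays while the brightest was split, and at day 2 they measured 1.04, 0.70 and -0.11, and 2.19, -0.97 and 0.73.

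The smallest p at day 4 belonged to a clone annotated as a putative DNA/chromatin binding motif, named here by its annotation only. It measured -0.49, -0.74 and -0.74 at day 4 (-0.66 ± 0.12, n = 3, adjusted p = 0.122, 1.58-fold below day 0) and -0.08, -0.41 and -0.09 at day 2. All 6 values lay below 0, every day 4 value lay under every day 2 value, and day 4 over day 2 was -0.46 ± 0.17 (adjusted p = 1.00), or -0.52 and -0.74 with array 1 or array 2 turned. The authors had marked its spots on 3 of 6 arrays. With the arrays scaled to 1 spread it passed the threshold (-0.69, adjusted p = 0.0428), the only gene of the 37 to do so under that scaling. The share of all probes passing under that scaling is not given here, so this pass has no background beside it.

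At day 2 none of the 35 genes passed the adjusted threshold (limma), nor did any probe of the series (0% called). At an unadjusted p under 0.05 there were 2, Hmgn2 and Smarca5, both below day 0, where 2.84% of all probes and 2.31% of the brightest probes per name did so, 1.40% of them below. With array 1 turned there were 4 (H2az1 and H3f3b below, Smarcc1 and the "histone acetyltransferase" clone above), where 23.2% of all probes and 22.8% of the brightest per name did so, 8.07% above and 14.7% below. With array 2 turned there was 1 (Hmgb3, below), where 13.8% of all probes and 15.6% of the brightest per name did so, 9.39% below. Without day 2 array 2 there were 4 of 35 (6.75% of the brightest probes per name), and without day 2 array 3 there were 0 of 35 (0.777%). Without day 4 array 1, 2 or 3 there were 1 of 23, 0 of 17 and 1 of 29 tested genes. Beside these stood 1.48%, 1.4% and 2.47% of the brightest probes per name. There the filter decided: Smarca5 was not tested without array 1, Hmgn2 was not tested without array 3, and neither was tested without array 2. Of the 8 named day 2 genes 4 kept their sign in both turned fits. On all 3 arrays 3 of the 37 genes lay above 0 and 7 below 0, beside 274 above and 424 below of the 4704 names. Arrays 1 and 2 were opposite in sign for 59.5% of the 37 genes and for 76.8% of all names.

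The ratio of day 4 to day 2 was taken through day 0, with a day 0 RNA shared by the third arrays only. Differences among the other day 0 samples therefore remain in it. In the labelled orientation a dye effect of constant size drops out, but with a day 2 array turned it does not. None of the 35 genes passed the adjusted threshold (limma, 0% of probes called). At an unadjusted p under 0.05 there were 3, Kat8 and Dnmt3a above and the putative binding motif below, where 2.64% of all probes and 2.78% of the brightest probes per name did so, 1.81% above and 0.971% below. With array 1 turned there were 4 of 35, H2az1 and Dnmt3a above and Smarcc1 and the putative binding motif below. The background was 11.4% of all probes and 12.7% of the brightest per name (7.03% above and 5.63% below). With array 2 turned there were 2 of 35, Kat8 above and the putative binding motif below. The background was 8.86% of all probes and 9.49% of the brightest per name (5.46% above and 4.03% below). Without day 2 array 1 there were 2 of 35, H2az1 above and Smarcc1 below (7.25% of the brightest probes per name). Kat8, Dnmt3a and the putative binding motif were then not among them. Without day 2 array 2 there were 2 of 35, Kat8 and the putative binding motif (5.72%). Without day 2 array 3 the count was 0 of 35 (2.03%), and without day 4 array 2 it was 0 of 17 (1.92%), where Dnmt3a was not tested. The median difference was -0.03.

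The sole linker histone set aside by the selection, H1f8 of oocytes, measured 2.24, 2.61 and 2.33 at day 4, with a fitted ratio of 2.39 ± 0.12 (n = 3, limma adjusted p = 0.00862). The highest ratio among the 35 tested genes was 0.64. Chromatin genes whose annotations lack the keywords were taken from a written list of 111 symbols, of which 41 were measured and 39 tested at day 4. None passed the adjusted threshold, 4 of 39 had an unadjusted p under 0.05 (1 above and 3 below day 0), beside 10.3% of the brightest probes per name, and the median was -0.15. These 4 were picked by that p, and their values are a description. Zfp57, which protects imprints, measured 1.21 and 1.14 (1.17 ± 0.18, n = 2, adjusted p = 0.102) at day 4 and 0.04, 0.43 and -0.13 at day 2. Jarid2, a polycomb partner, measured -0.49, -0.39 and -0.76 (-0.55 ± 0.13, n = 3, adjusted p = 0.225). Kdm6a, a histone H3 demethylase, measured -0.59, -0.21 and -1.28 (-0.69 ± 0.25, n = 3, adjusted p = 0.454), and the acetyltransferase Kat2b measured -0.32, -0.24 and -0.21 (-0.26 ± 0.10, n = 3, adjusted p = 0.497).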

How the data were processed

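Per the labels, ovary RNA of day 2 or day 4 (Cy5) and day 0 (Cy3) was hybridised on 6 spotted cDNA arrays. The authors deposited 4 repeat log2 ratios per probe and array, their mean and a mean log2 intensity, per the file headers. The submitters' processing notes name R 1.7.1. The sources used here name no background correction or normalization, and the undefined marks on spots were used as an alternative filter only. The labels give the arrays of an age as biological replicates, and precision is limited by how many there are.

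The mean of the 4 repeats was used, and probes with values on at least 2 arrays of each age were tested (8135 of 8272). Differences were fitted with limma 3.58.1 in R 4.3.3, 1 mean per age over 6 arrays, 2-sided, with Benjamini-Hochberg adjustment over all probes tested. SEs come from this fit, which pools the spread of both ages, and n counts the arrays of that age with a value. The fit was tested on simulated data, but no result of that is given here. It is no evidence on how the fit handles the opposed day 2 arrays or the shared day 0 RNA. The members, lists and tests were chosen with earlier results of these data known, so no test was run on a list as a whole. The rule for genes described array by array took any past the threshold (there were none), the 8 with the smallest p per direction at day 4, the 4 per direction in the other comparisons, and histones, DNA methyltransferases and heterochromatin, remodelling and high mobility group genes with known oocyte roles. The others described were chosen after their values were seen. Of the 37 genes, 1 is counted but not reported here by its values. Promoters came from a RefSeq table. Alternatives covered centring, scaling, repeats, spot marks, filters, variance settings, probe choice, a replicate block, turned arrays and left-out arrays.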

Additional observations from a re-analysis of the deposited data

How the results depend on the processing

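The number of arrays and the opposed day 2 arrays limit these results. With limma, 0 of the 37 genes passed the adjusted threshold in any comparison under any alternative but 1: with the arrays scaled to 1 spread, 1 gene passed at day 4 against day 0, the putative binding motif (adjusted p = 0.0428, range 0.0428 to 0.762 over its alternatives). All-probe calls under that scaling are not shown. Many alternatives (other arrays turned or left out, filters, variance settings) cannot move a gene's mean. Of the named genes' values that moved, some barely, 105 of 106 kept their sign at day 4. It was 78 of 82 at day 2 and 99 of 100 between them. The genes were picked by p, so this is no test.

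The counts at an unadjusted p under 0.05 moved more. For day 4 against day 0 (6 as reported) the count was 3 of 26 with marked values left out and 3 of 30 with the dimmest probes left out. When 1 array was left out it ranged from 2 of 17 to 8 of 35. Beside these stood 8.07% (without day 4 array 2) and 16.2% (without day 2 array 2) of the brightest probes per name. For day 2 against day 0 (2 as reported) it was 0 with only probes on all 6 arrays, 1 with the dimmest probes left out, 0 with a trended and robust variance, 1 with day 2 fitted alone, 4 with array 1 turned, 1 with array 2 turned and 0 with the arrays that share a day 0 RNA left out. It ranged from 0 to 4 when 1 array was left out. It was 0 of 35 without day 2 array 3 (0.777% of the brightest probes per name) and 4 of 35 without day 2 array 2 (6.75%). Without day 2 array 1 it was 3 of 35 (16.1%). For day 4 against day 2 (3 as reported) it was 1 with marked values left out and 1 with the dimmest probes left out. It was 0 with a trended and robust variance and 1 without the arrays that share a day 0 RNA. When 1 array was left out it ranged from 0 of 35 to 3 of 29. Beside these stood 2.03% (without day 2 array 3) and 3.3% (without day 4 array 3) of the brightest probes per name. Apart from the turned arrays, the other alternatives here have no such share beside them, so their counts lack a background.

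The median log2 ratio was -0.14 for day 4 against day 0 on probes with values on all 6 arrays, and it ranged from -0.22 to -0.047 when 1 array was left out. For day 2 against day 0 it was -0.044 with the dimmest probes left out, -0.077 with array 1 turned and 0.014 with array 2 turned, and it ranged from -0.094 to 0.020 when 1 array was left out. For day 4 against day 2 it was -0.11 on probes with values on all 6 arrays and -0.10 with the mean over the probes of a gene, and it ranged from -0.10 to 0.014 when 1 array was left out. The causes were not tested, other than that filters leave fewer genes tested.

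With the replicate block the count at an unadjusted p under 0.05 was 6 at day 4 over day 0 (10.2% of the brightest probes per name), of which 4 were those reported: Dnmt3a and Pcgf1 were no longer among them and Hmgb1 and Hmgb3 were, so that 1 lay above and 5 below. The count was 2 at day 2 over day 0 (3.37%; Hmgb1 in place of Smarca5) and 1 for day 4 over day 2 (2.48%; Kat8), and 0 genes passed the adjusted threshold. Deviations of same-numbered arrays correlated at 0.37, 0.053 and 0.51 over 5270 probes, the last for the arrays that share a day 0 RNA. The main fit took all arrays as separate, so its SEs leave out any such dependence. A random block for the arrays that share a day 0 RNA was not run, because limma returned no correlation estimate with 1 shared pair, and a fit of 1 age alone has no day 4 against day 2 value.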
